A study of Mus musculus with 6 samples.

Results

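The miR-183, miR-96 and miR-182 cluster is a group of 3 microRNAs made from neighbouring hairpins of mouse chromosome 6. Its members were taken by name from the arrays of this study: 3 of the 577 microRNA entries, namely mmu-miR-183, mmu-miR-96 and mmu-miR-182. The cluster was singled out because miR-96 had been lower in large oocytes of older mice, so the values of that comparison are given below as a description, with no test read for the members. Total RNA of pooled C57BL/6 mouse oocytes was labelled with Cy3 and read on 6 one-colour Agilent arrays, 2 for each of 3 groups. Aged large oocytes were 60 to 80 µm across and were taken from mice of 41 to 43 weeks by the age label and the series text; the descriptions of these samples say 42 to 44 weeks. Young large oocytes, also 60 to 80 µm across, were from mice of 6 to 8 weeks. Young small oocytes came from mice of 6 to 8 weeks and were 20 to 50 µm across; their titles call them non-growing and their stage label names the primordial follicle. Per the series text, oocytes were pooled by size and each sample was run in duplicate. Separate animals or pools are not named, so the spread between the 2 arrays of a group, and every p-value built on it, may be technical.

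MicroRNAs are short RNAs that guide Argonaute proteins to messenger RNAs, mainly through the seed, bases 2 to 8 from the 5′ end. The miR-183 cluster is best known from sensory organs, where photoreceptors, hair cells and sensory neurons make all its members, and where mutations in the seed of miR-96 cause hearing loss in mice and people. In human cancer cells miR-96 and miR-182 repress the transcription factor FOXO1, and in bovine granulosa cells, which surround the oocyte, the cluster has been tied to FOXO1 and proliferation.

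The mature sequences are shown because the members' seeds are near copies of each other. All 4 entries looked up, the 3 members and the other arm of the miR-183 hairpin, matched RefSeq (GRCm38.p6). The sequences are RefSeq's 5′ arms, matched by name, and the array's own probes may cover fewer bases. The seed is in capitals.
miR-183: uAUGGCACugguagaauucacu
miR-96: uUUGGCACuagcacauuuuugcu
miR-182: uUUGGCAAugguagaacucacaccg
Counted from 1 at the 5′ end, the bases at positions 3 to 7 were the same in all 3 members. The seeds of miR-183 and miR-96 shared 6 of 7 bases and differed by A2U. Those of miR-96 and miR-182 also shared 6 of 7 and differed by C8A, while miR-183 and miR-182 shared 5 of 7. Over their first 22 positions without gaps, miR-183 and miR-182 were identical at 18, whereas miR-183 and miR-96 were identical at 13 of 22 and miR-96 and miR-182 at 12 of 23. No pair thus had the same seed. In RefSeq 1 other mouse microRNA, miR-1271-5p, had a member's seed, that of miR-96, and the arrays carried no entry of that name.

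The hairpins are shown because they place the members on 1 strand of 1 region, with the mature 5′ arm in capitals. All lay on the minus strand of chromosome 6 (GRCm38.p6, RefSeq).
Mir183, chr6:30169668-30169737: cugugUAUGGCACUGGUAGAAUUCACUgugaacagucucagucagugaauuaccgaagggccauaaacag
Mir96, chr6:30169446-30169551: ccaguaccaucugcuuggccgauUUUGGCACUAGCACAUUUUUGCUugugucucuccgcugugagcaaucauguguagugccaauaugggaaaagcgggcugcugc
Mir182, chr6:30165918-30165992: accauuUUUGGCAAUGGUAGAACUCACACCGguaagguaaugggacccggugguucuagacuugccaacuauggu
The hairpins of miR-183 and miR-96 were 116 bases apart, and 3453 bases lay between those of miR-96 and miR-182. RefSeq placed all 3 inside the long non-coding RNA gene Mirc35hg, with Nrf1 and Ube2h as the nearest protein-coding genes on either side. Of the other arms of these hairpins, only miR-183* had an entry; it was not detected on any of the 6 arrays, and its raw signal was at most -1.32.

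Signals are total intensities per microRNA after background subtraction. Array brightness differed, and the scaling factor was 0.954 and 1.06 for aged large, 1.94 and 1.48 for young large, and 0.582 and 0.589 for young small oocytes. The factor was each array's 75th percentile of the 56 microRNAs that every array detected, divided by the geometric mean of these percentiles. Of the 577 entries, 79 and 89 were called detected on aged large arrays, 102 and 97 on young large arrays, and 57 and 60 on young small arrays. The number of oocytes per array is not given in the labels, so fewer oocytes and less RNA per oocyte cannot be told apart in the raw signal. Scaled signals show only how a microRNA moved relative to the others.

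miR-96 was detected on every array. Its raw signal, with the deposited error of each, was 18.3 ± 2.08 and 21.0 ± 2.10 on aged large arrays, 65.3 ± 4.98 and 50.9 ± 4.04 on young large arrays, and 20.1 ± 2.09 and 20.7 ± 2.04 on young small arrays. Before scaling, young large oocytes stood above the other 4 arrays, and the aged large and young small arrays overlapped. After scaling it was 19.2 and 19.8 on aged large arrays, 33.6 and 34.3 on young large arrays, and 34.6 and 35.1 on young small arrays. On the scaled values both aged large arrays were below all 4 young arrays, and the 2 young groups lay side by side. The order of scaled levels was young small (34.9 ± 0.399), young large (34.0 ± 0.484) and aged large oocytes (19.5 ± 0.427; SD, n = 2 each).

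miR-183 was detected on both young large arrays and on no other. Its raw signal was 3.15 ± 1.63 and 3.91 ± 1.49 on aged large arrays, 13.8 ± 1.94 and 9.31 ± 1.83 on young large arrays, and 3.83 ± 1.52 and 3.65 ± 1.42 on young small arrays (± deposited error). The 4 undetected signals were between 1.94 and 2.63 times their errors, so each was a weak signal that the scanner software did not call. After scaling, miR-183 was at 3.31 and 3.69 on aged large arrays, 7.09 and 6.28 on young large arrays, and 6.58 and 6.19 on young small arrays. On these scaled values the 2 aged large arrays were the lowest and the young groups overlapped. The raw signals of aged large and young small arrays, all undetected, overlapped, so these groups parted only after scaling. The scaled errors on young small arrays were 2.61 and 2.41. The level itself was measured only in young large oocytes.

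miR-182 was called detected on 1 of 2 aged large arrays, on both young large arrays and on neither young small array. Its raw signal was 2.06 ± 1.63 and 3.63 ± 1.51 on aged large arrays, 9.20 ± 1.85 and 5.13 ± 1.75 on young large arrays, and 1.99 ± 1.50 and 1.86 ± 1.41 on young small arrays (± deposited error). The call on the aged large array came at a signal of 2.41 times its error, lower than the 2.63 at which miR-183 was not called on the same array. With detection set at 3 times the deposited error, miR-182 was detected on 1 array, young large array 1, while miR-96 stayed at 6 arrays and miR-183 at 2. After scaling, miR-182 was at 2.16 and 3.42 on aged large arrays, 4.74 and 3.46 on young large arrays, and 3.41 and 3.15 on young small arrays. All 6 values lay under the floor of 6.17, the highest, over the arrays, of the lowest scaled signal called detected, so miR-182 had no order between groups on the log2 scale used for the fits.

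**Figure D1:**
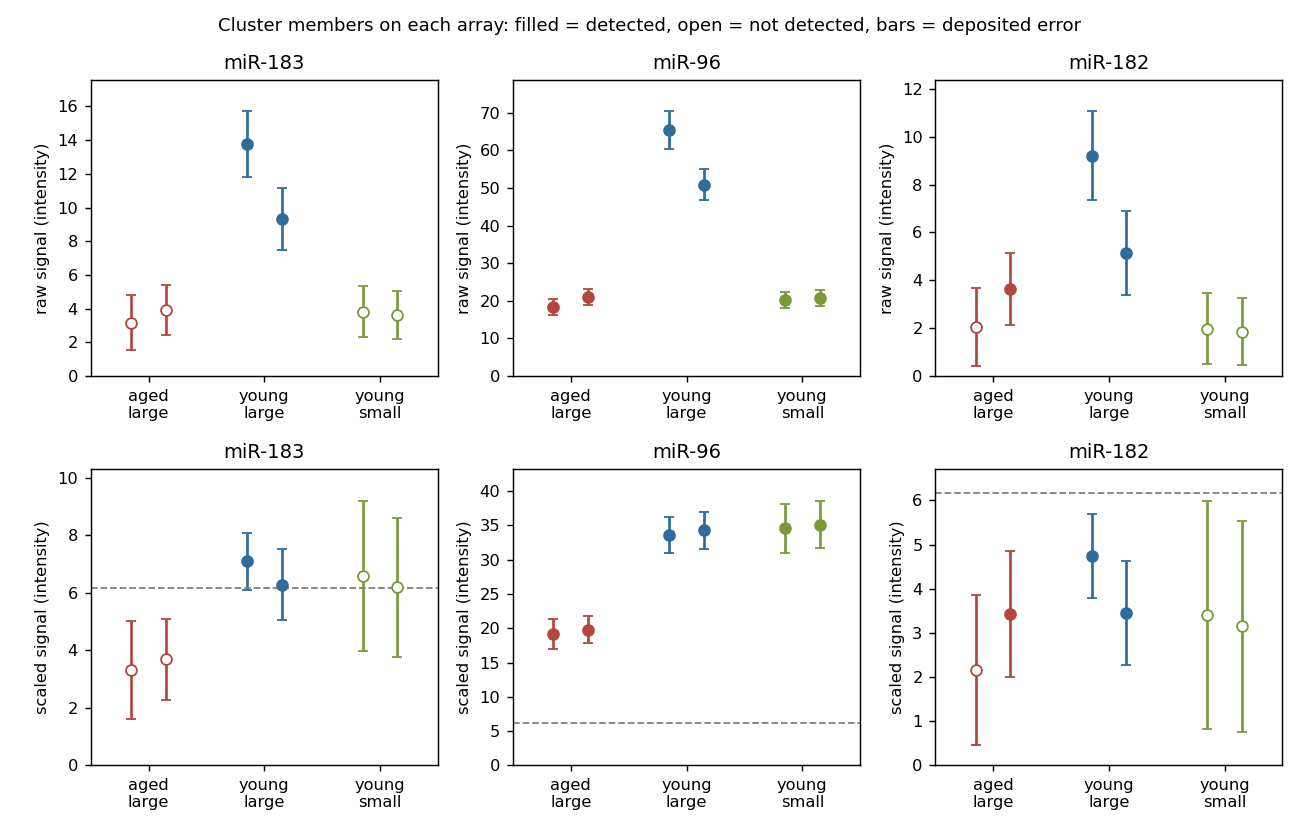
Raw (upper row) and scaled (lower row) signal of miR-183, miR-96 and miR-182, as intensity, on the 2 arrays of each group; bars are the deposited error, filled points are called detected, open points are not, and the dashed line is the floor of 6.17. Scaled miR-96 sits at 19.2 and 19.8 on aged large arrays and between 33.6 and 35.1 on the 4 young arrays, while all values of miR-182 lie under the floor.

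The first comparison set aged large against young large oocytes, which the series text ties to reproductive ageing, and it is the one miR-96 was picked from. miR-96 averaged 19.5 ± 0.427 in aged large and 34.0 ± 0.484 in young large oocytes (scaled signal, SD, n = 2 each), a difference of -42.6% and a log2 difference of -0.80 ± 0.02 (SE). Carrying the deposited errors of the 4 arrays through gave a difference of -14.5 ± 2.38 scaled units, an error wider than the spread between duplicates. miR-183 averaged 3.50 ± 0.272 in aged large and 6.68 ± 0.571 in young large oocytes, a difference of -3.18 ± 1.36 units by the deposited errors. No aged large array detected it, so its level in aged large oocytes was not measured and the size of the difference is uncertain. miR-182 averaged 2.79 ± 0.893 in aged large and 4.10 ± 0.903 in young large oocytes, and its difference of -1.31 ± 1.34 units was no larger than its error.

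These errors hold the scanner's measurement error alone, not the spread between pools of oocytes. On the floored log2 scale, miR-96 had aged large arrays below both young large arrays, beside 27.8% of the 97 microRNAs tested. miR-183 is counted in that share too. It entered through its detection in young large oocytes alone, with its aged large values set to the floor, so its place there is not read. In the fit across all microRNAs 29.9% of those tested passed an adjusted p of 0.05 (limma). These shares are background only, as the members were chosen from this contrast. The value of miR-183 depended on the floor: its fitted log2 difference was -0.11 with the floor of 6.17 and -0.93 with a floor at 3.09.

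The growth comparison of the series text was between young large and young small oocytes. The rule did not use it, but it shares the young large arrays with the contrast that was used. Of the 3 members, miR-96 was the only one detected in both groups, and it did not pass the test, where 37.2% of the 94 microRNAs tested passed (limma). miR-183 and miR-182 entered the test through their detection in young large oocytes alone, and miR-182 was at the floor on every array. miR-96 averaged 34.0 ± 0.484 in young large oocytes, against 34.9 ± 0.399 in young small ones (SD, n = 2 each), a log2 difference of -0.04 ± 0.02 (SE; limma, adjusted p = 0.294). Its 95% confidence interval ran from -0.10 to 0.03, and from -0.17 to 0.10 when only microRNAs detected on all 6 arrays were fitted. The arrays of the 2 groups did not overlap, with young large lower, which 37.2% of the tested microRNAs showed as well, and by the deposited errors the difference was -0.899 ± 3.11 scaled units. miR-183 averaged 6.68 ± 0.571 in young large and 6.38 ± 0.273 in young small oocytes, with a fitted log2 difference of 0.06. Neither young small array detected it, so its level in young small oocytes was not measured. That difference is therefore not a measured fold, and no test is read from it. miR-182 averaged 4.10 ± 0.903 in young large and 3.28 ± 0.181 in young small oocytes and lay under the floor in both, so no fold is given.

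**Figure D2:**
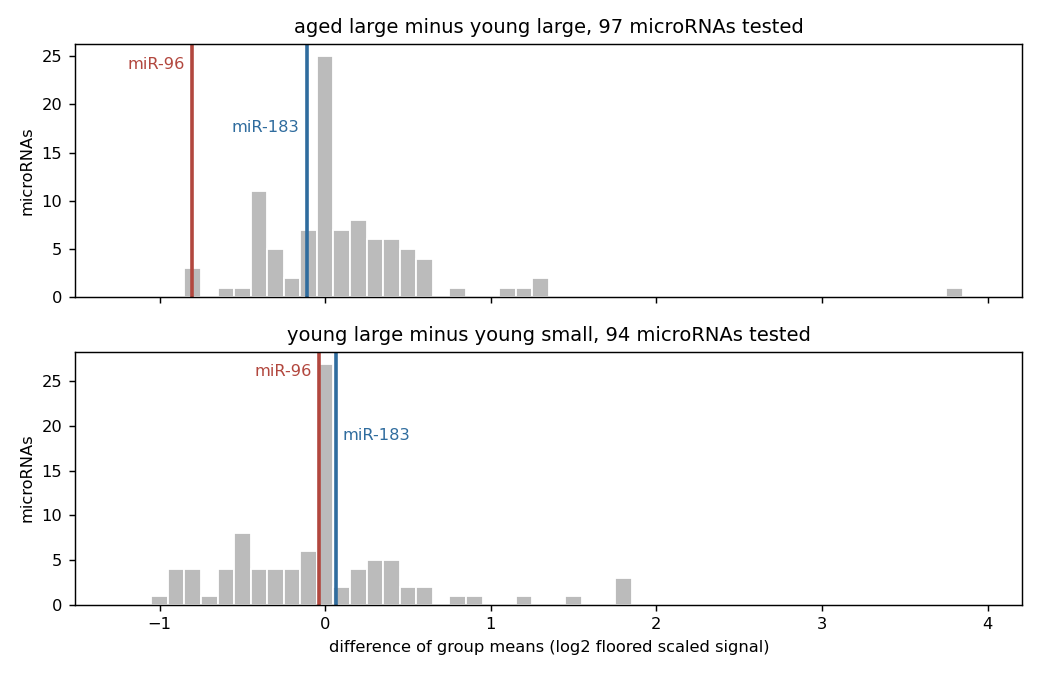
Differences of group means on the log2 scale of floored scaled signal, for the 97 microRNAs tested between aged large and young large oocytes (upper panel) and the 94 tested between young large and young small oocytes (lower panel); bars count microRNAs and lines mark miR-96 and miR-183. miR-96 lies at -0.80 in the upper and -0.04 in the lower panel, and miR-183 at -0.11 and 0.06; the bar at 0 holds microRNAs at the floor, miR-182 among them.

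In the growth comparison the value of miR-96 depended on how the arrays were scaled. Its log2 difference between young large and young small oocytes was 1.50 without scaling, 0.46 with the 75th percentile over all entries, 0.38 with the total detected signal, 0.13 with that total without miR-720, 0.01 with the median over microRNAs detected on all arrays, and -0.03 with quantile normalization. Of these, the value without scaling passed the test (limma, adjusted p = 0.000491), and there the median over all tested microRNAs was 1.23. The authors' deposited series table, in which signals under 10 are 0, gave 0.31, which also passed (limma, adjusted p = 0.0166). There the 75th percentile was taken over the fewer microRNAs above 0 on every array. The unscaled signals of miR-96, all above 10, were unchanged, so its difference moved with the scaling alone. For miR-183, undetected in young small oocytes, the difference was 1.60 without scaling and 0.55 with the percentile over all entries, and no test is read from it. Set against the median of all tested microRNAs, miR-96 was between -0.04 and 0.26 under the 7 scalings. That median includes microRNAs at the floor on every array. Over the 56 microRNAs detected on all arrays, scaled by their own 75th percentile, the growth median was -0.27, and miR-96 lay 0.23 above it. In the ageing comparison the difference was negative under all 7, between -1.56 without scaling and -0.75 with the median, and between -1.07 and -0.77 relative to the median of all tested microRNAs. Both aged large arrays lay below all 4 young arrays under 6 of 7 scalings; without scaling they overlapped the young small arrays.

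**Figure D3:**
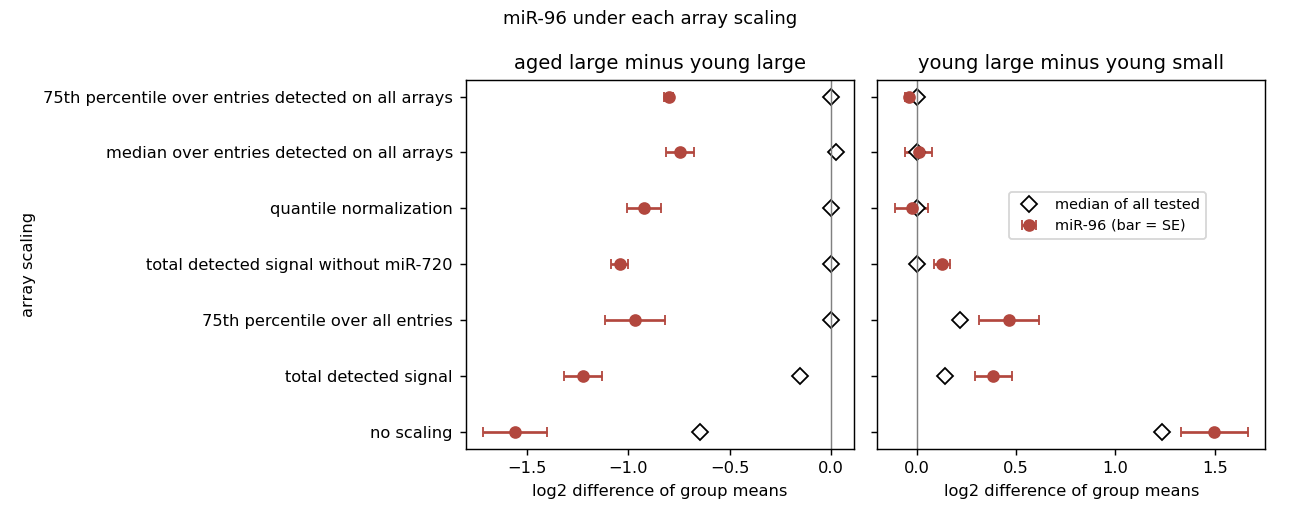
Log2 difference of miR-96 (red points, bars are SE) and median of all tested microRNAs (open diamonds) under 7 array scalings, for aged large minus young large (left) and young large minus young small oocytes (right). In the left panel miR-96 stays between -1.56 and -0.75 and below the median in each scaling. In the right panel it runs from -0.04 to 1.50, and relative to the median from -0.04 to 0.26.

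A profile like that of miR-96, with both aged large arrays below all 4 young arrays, was seen in 12 of the 56 microRNAs detected on every array (21.4%), miR-96 among them. By Pearson's correlation over the 6 arrays, in log2 scaled signal, the closest were miR-16 (0.994), miR-19b (0.993) and miR-22 (0.991). The 6 points are 3 pairs of duplicates, so these values describe the order of the groups more than 6 separate samples. miR-16, a repressor of cell cycle genes, was at 57.1 and 57.4 on aged large arrays, 71.6 and 69.9 on young large arrays, and 72.7 on both young small arrays. miR-19b, made in part from the same transcript as miR-17, was at 60.2 and 61.1 on the aged large, 88.3 and 89.1 on the young large, and 95.1 and 95.9 on young small arrays. miR-22 was at 20.4 and 20.1 on the aged large, 26.1 and 26.1 on the young large, and 26.2 and 27.6 on young small arrays. All 3 shared the shape, with a smaller log2 difference between aged large and young large oocytes than the -0.80 of miR-96: -0.30 for miR-16, -0.55 for miR-19b and -0.37 for miR-22.

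**Figure D4:**
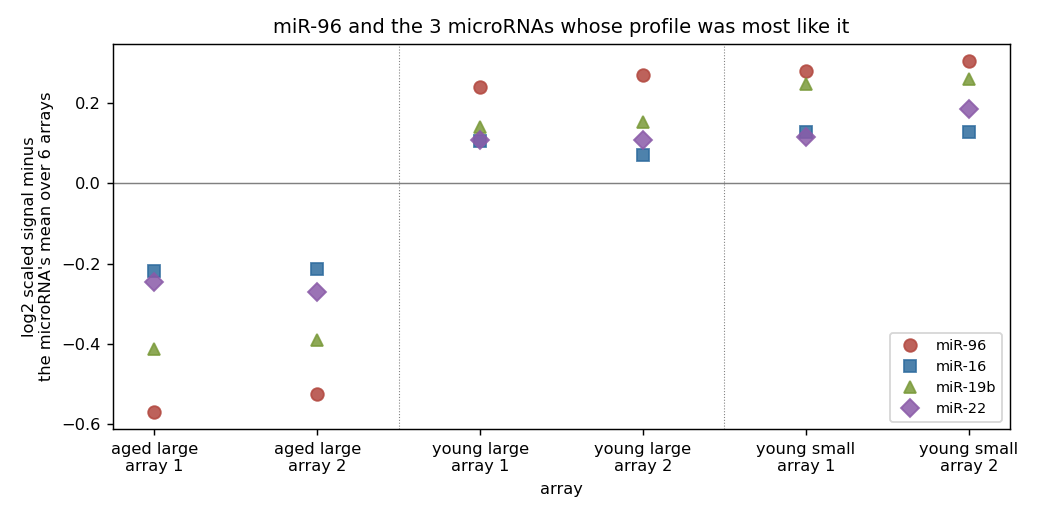
Log2 scaled signal on each array, minus each microRNA's mean over the 6 arrays, for miR-96, miR-16, miR-19b and miR-22. On the 2 aged large arrays all 4 microRNAs are under their mean and on the 4 young arrays all are above it, with miR-96 farthest from 0 (19.2 and 19.8 scaled units on the aged large and 33.6 to 35.1 on the young arrays).

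Other microRNAs that share settings with the cluster were looked up as lists; over the whole array 108 of 577 entries were detected on at least 1 array. The transcription factor ZEB1 represses miR-183 together with miR-203 and the miR-200 family in human carcinoma cells. Of those 6 entries, miR-200c and miR-141 were detected, each on all 6 arrays. Between young large and young small oocytes miR-200c rose, with a log2 difference of 0.26 ± 0.05 (SE; limma, adjusted p = 0.0315); it stayed positive under all 7 scalings and missed the threshold with quantile normalization (adjusted p = 0.0770) and the 75th percentile over all entries (adjusted p = 0.0908). The difference of miR-141 was 0.09 ± 0.03 (SE; limma, adjusted p = 0.104), positive under all 7 scalings and past the threshold under 4 of them: quantile normalization (0.19; adjusted p = 0.0463), the total without miR-720 (0.26; adjusted p = 0.00385), the total (0.52; adjusted p = 0.0107) and no scaling (1.63; adjusted p = 0.000288). The median of these 2 was 0.18, beside 0 over all tested microRNAs and -0.27 over the 56 detected on all arrays. In the ageing comparison miR-141 averaged 26.9 in aged large and 47.2 in young large oocytes (scaled signal), a log2 difference of -0.81 ± 0.03 (SE) that is close in size to that of miR-96. miR-200c averaged 30.1 in aged large and 31.4 in young large oocytes, with a log2 difference of -0.06 ± 0.05 (SE). miR-27a, which represses FOXO1 in human breast cancer cells as miR-96 and miR-182 do, was not detected on any array. miR-27b, listed with it, was detected on 2 arrays and lay under the floor in every group. None of 5 retinal and neural entries (miR-204, miR-211, miR-124, miR-9 and miR-9*) was detected on any array, and their highest raw signal was 2.37.

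No mRNA marker of oocytes is on such an array; of 14 entries of the early-embryo cluster from miR-290 to miR-295, known from oocytes and early embryos, 8 were detected. In growth 5 of the 7 tested arms rose and 1 fell, beside 17 that rose and 18 that fell of all 94 tested; miR-293 and miR-295, among the 5, were not detected in young small oocytes and so entered the test through the large ones. The summed scaled signal of 7 granulosa cell markers was 24.2 to 29.4 on the aged large, 21.5 to 21.6 on the young large and 17.6 to 20.5 on young small arrays. Of these, miR-132, miR-503, miR-351 and miR-383 were undetected throughout, and neither of the 2 tested, miR-21 and miR-212, passed in either comparison. miR-21, detected on all 6 arrays, averaged 10.8 in aged large, 11.0 in young large and 12.1 in young small oocytes. In that order, miR-212 averaged 11.7, 8.15 and 5.09. The means of miR-322, under the floor, were 4.29, 2.37 and 1.87. The 7 blood cell markers summed to between 52.6 and 57.8 on the aged large, 26.1 and 26.8 on the young large, and 9.83 and 11.0 on young small arrays; miR-223 was the 1 marker detected. None of the 6 stroma, smooth muscle and endothelial markers on the array was detected. The granulosa and blood cell sums were thus highest on the arrays where scaled miR-96 was lowest. So was the sum of the early-embryo entries, at 151 and 152 on aged large, 129 and 144 on young large, and 64.9 and 65.8 on young small arrays. The mean of miR-21 was not higher there, and the blood cell sum was mostly miR-223. The part of such cells in the values of miR-96 was not tested.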

How the data were processed

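The deposited scanner files hold, per the file headers, 1 linear, background-subtracted intensity for each microRNA, its error, a detection call and the fraction of spots kept as inliers. The submitters' processing notes name Agilent Feature Extraction 9.5 for reading the images. The arrays were not normalized to each other, and the method of background subtraction is not given in the sources used here. A deposited series table repeats the intensities with values under 10 set to 0.

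The 577 microRNA entries were used and 23 control entries left out. Signals were scaled by each array's 75th percentile of the 56 microRNAs that every array detected, floored at 6.17 and put on the log2 scale. MicroRNAs detected on both arrays of a compared group were tested with limma 3.58.1 in R 4.3.3 (a mean per group over all 6 arrays, eBayes, two-sided, Benjamini-Hochberg over all tested, threshold 0.05), which leaves 3 residual degrees of freedom. Entries at the floor on all arrays pull the prior variance down, so the smallest standard errors are optimistic. The number of arrays limits the precision. The fit was tested on simulated data in which only microRNAs brighter than miR-183 and miR-182 were changed. That run does not cover signals near or under the floor.

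Groups were taken from the sample titles. Named microRNAs were the members, their other arms, the 3 most like miR-96 over the 6 arrays, those sharing a member's seed, and up to 3 per list by growth p; miR-141 and the markers are given for their lists. The members and lists were chosen with earlier results of these data known. Other scalings, floors, filters, detection rules, spread models, the replicate number as a block and each array left out were alternatives; a crossed block was added after the data were seen. Figures were drawn with matplotlib 3.10.9.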

Additional observations from a re-analysis of the deposited data

How the results depend on the processing

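The log2 difference of miR-96 between aged large and young large oocytes was negative under every alternative run. It was -1.56 without scaling, -1.22 with the total detected signal, -1.04 with that total without miR-720, -0.97 with the 75th percentile over all entries, -0.92 with quantile normalization, -0.75 with the median, -0.77 with a pseudocount and -0.85 with the series table, and between -0.82 and -0.78 with 1 array left out. For miR-183, at -0.11, it was also negative in every alternative that tested it but varied widely, with -1.59 unscaled, -0.93 with a lower floor, -0.77 with a pseudocount, -0.64 with the all-entry percentile, -0.55 and -0.26 with the total with and without miR-720, and -0.20 to -0.02 with 1 array left out. In the growth comparison miR-96 changed sign to 1.50 with unscaled signals, 0.46 with the all-entry percentile, 0.38 and 0.13 with the total with and without miR-720, 0.0095 with the median and 0.31 with the series table (limma, adjusted p = 0.0166). It was between -0.05 and -0.01 with 1 array left out. miR-183 had 1.60 with unscaled signals and 0.55 with the all-entry percentile and between -0.02 and 0.15 with 1 array left out; its sign turned without young large array 1 (-0.024) and without young small array 2 (-0.0051). The cause was not tested.

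The count of 29 calls in ageing was 58 with unscaled signals, 6 with the all-entry percentile, 12 without the filter, 15 at a threshold of 0.01, 16 with the replicate number as a block, and 16 to 30 with 1 array left out (16 when it was the first young small array, 19 for the second young small or the first young large array). The count of 35 in growth was 84 with unscaled signals, 17 with the all-entry percentile, 1 without the filter, 22 with the series table, 23 at 0.01, and 13 to 36 with 1 array left out (13 without young small array 1). The split of 14 higher to 15 lower in ageing became 3 to 55 without scaling, 4 to 24 with the total and 8 to 24 without miR-720, and that of 17 to 18 in growth became 84 to 0, 26 to 1 and 22 to 14. Same-numbered arrays deviated with r = 0.154 (aged large and young large) and -0.165 (young large and young small), and no label pairs them. With the replicate block miR-96 kept -0.04 in growth (limma, adjusted p = 0.0821) and 26 microRNAs were called; a crossed block, chosen after seeing the data, called 28 in ageing and 26 in growth.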
